A study of Mus musculus with 7 samples.

Results

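Regions of the mouse genome that were open in the whole lower incisor at postnatal day 2 and in no other library of a tooth and jaw series are described here. The assay, ATAC-seq, lets a transposase insert sequencing adapters where nucleosomes leave DNA free, and a peak is a stretch where the sequenced fragments are dense. The 38000 most significant peaks on chromosomes 1 to 19 were taken from each of 7 deposited peak lists, chosen by the deposited −log10 p and, for ties, the deposited signal of each peak. Peaks that shared at least 1 bp were joined into 77136 regions, of which 37274 held an incisor peak. Among these, 3364 held no peak of the other 6 libraries, which is 4.36% of all regions and 9.03% of the incisor regions. They are called incisor-alone regions below. Because only 1 incisor library exists, the 238 of them whose peak lay among the 20000 best incisor peaks are also given separately. They made up 1.2% of the 19799 incisor regions of that rank.

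The series holds 5 groups of mouse samples. The ectoderm of the first pharyngeal arches, peeled from its mesenchyme after Dispase II treatment at embryonic day 11.5, gave replicates 1 and 2. Sox2-positive dental epithelial stem cells (DESC) were sorted by FACS from the labial cervical loop, where the epithelium at the base of the lower incisor renews itself, at postnatal day 2. They came from Sox2-GFP mice, in which the endogenous Sox2 promoter drives GFP, and also gave replicates 1 and 2. Whole teeth of postnatal day 2 gave 1 library each for the lower incisor, the lower first molar and the upper first molar. The labels give no strain, sex or number of animals pooled for any library, and do not say whether replicates came from separate litters. The whole-tooth libraries hold every cell type left after dissection, so fewer cells of a type and less accessibility per cell cannot be told apart. With 1 incisor library, no value below has a replicate check and no test between conditions was possible. Intervals in brackets are 95% Wilson intervals, which cover the counting of regions only, and regions of 1 library are not replicates.

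The rodent incisor grows throughout life. Stem cells in its cervical loops renew the enamel-forming ameloblasts, and mesenchyme around a nerve and vessel bundle renews the dentin-forming odontoblasts, whereas mouse molars stop growing once their crown and roots are formed. During jaw development, genes such as Hand2, Alx4 and Foxf2 mark the distal mesenchyme where the incisor forms. Open regions close to gene starts tend to be shared by many tissues, while those far from genes are often enhancers used by fewer cell types.

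Before the regions themselves, sequences of start windows that they touch are shown, because such contact places a member close to a gene's start. RefSeq start windows, which run from 250 bp before to 50 bp after a gene's start on assembly GRCm38.p6, touched 34 incisor-alone regions at 34 genes. In 4 of these, chosen after their values were seen, the summit of the incisor peak lay inside the window and the complete peak lists of all other libraries held no peak, chromosomes 8 and 18 being left aside. They belonged to Pfkm, the muscle-type phosphofructokinase of glycolysis, Akt2, a kinase of insulin signalling, and Kcnj15 and Kcne4, a channel and an accessory subunit for potassium. In that order, their incisor peaks had ranks 33382, 33441, 34772 and 36045 and a −log10 p of 4.22, 4.22, 4.16 and 4.10. Their signals were 431, 402, 340 and 362. All 4 peaks were thus weak ones of the incisor list, where rank 38000 had a −log10 p of 4.01. All 4 windows lie on the plus strand, at chr15:98111810-98112109 for Pfkm, chr7:27605547-27605846 for Akt2, chr16:95257308-95257607 for Kcnj15 and chr1:78816661-78816960 for Kcne4. Each is printed 5′ to 3′, and capitals mark matches to the factor motifs named after the sequences.
Pfkm: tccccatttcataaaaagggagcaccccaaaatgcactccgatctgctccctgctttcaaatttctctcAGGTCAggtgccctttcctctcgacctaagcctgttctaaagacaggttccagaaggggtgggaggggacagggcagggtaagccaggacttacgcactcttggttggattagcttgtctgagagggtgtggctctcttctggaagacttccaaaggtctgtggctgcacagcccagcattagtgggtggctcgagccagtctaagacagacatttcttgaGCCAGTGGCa
Akt2: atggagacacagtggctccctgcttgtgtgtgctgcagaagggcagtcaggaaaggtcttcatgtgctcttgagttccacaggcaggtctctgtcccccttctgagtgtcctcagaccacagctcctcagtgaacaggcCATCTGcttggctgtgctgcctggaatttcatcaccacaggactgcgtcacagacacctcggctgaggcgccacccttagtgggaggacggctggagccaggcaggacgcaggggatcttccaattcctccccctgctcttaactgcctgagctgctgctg
Kcnj15: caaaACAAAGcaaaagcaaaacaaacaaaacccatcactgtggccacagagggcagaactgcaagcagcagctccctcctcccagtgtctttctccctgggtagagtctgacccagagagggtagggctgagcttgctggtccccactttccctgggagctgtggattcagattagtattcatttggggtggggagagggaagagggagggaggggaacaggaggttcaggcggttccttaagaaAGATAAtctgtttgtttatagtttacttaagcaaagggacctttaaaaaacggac
Kcne4: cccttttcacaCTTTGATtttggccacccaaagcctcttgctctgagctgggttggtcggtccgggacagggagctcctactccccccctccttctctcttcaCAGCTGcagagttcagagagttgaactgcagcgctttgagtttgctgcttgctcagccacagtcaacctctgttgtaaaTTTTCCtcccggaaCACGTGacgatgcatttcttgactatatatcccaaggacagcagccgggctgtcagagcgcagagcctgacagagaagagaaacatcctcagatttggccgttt
The incisor summit lay 12 bp before the start of Pfkm, 77 bp before that of Akt2, 169 bp before that of Kcnj15 and 159 bp before that of Kcne4. The Kcnj15 region, chr16:95257195-95257505, ended before the start site at 95257558. Windows can reach beyond the regions, so a printed match need not lie in open DNA.

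Motifs were searched on both strands as plain letter strings, and a match describes letters rather than a bound site. The Pfkm window held the nuclear receptor half-site AGGTCA and the AP-2 string GCCNNNGGC, and that of Akt2 held the E-box CATCTG. Kcnj15 held the SOX string ACAAAG and the GATA string AGATAA, the latter outside the incisor-alone region. Kcne4 held the E-boxes CAGCTG and CACGTG, and, on the opposite strand, the TCF-LEF string ATCAAAG and the NFAT string GGAAAA, which overlap no other printed match. The degenerate NF-kB string, present in 57.9% of all windows, was left in lower case.

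Over the start windows of the 34 genes, the SP-KLF string GGGCGG stood in 11 windows and the ETS string CGGAAG in 2. Among all 20063 start windows of 300 bases, 47.0% held GGGCGG and 21.5% held CGGAAG. TEAD (GGAATG) was found in 7 of the 34 against 13.4% of all windows, DLX-MSX (CAATTA) in 6 against 6.86%, and AP-1 (TGANTCA) in 3 against 7.06%. These are only some of the motifs counted. Others stood on both sides, such as MEF2 in 3 against 3.54%, TCF-LEF in 3 against 3.25% and FOX in 0 against 3.04%. The median GC content was 52.7% in the 34 windows and 57% in all windows. With 34 windows, none of these shares was tested against the others, and base composition differs between the sets.

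Incisor-alone regions came from the weaker end of the incisor list. The ranking chose them, so the following values are descriptive. None of the 4986 incisor regions ranked 1 to 5000 was incisor-alone. The share was 0.0806% for ranks 5001 to 10000, 0.890% for 10001 to 15000, 3.87% for 15001 to 20000 and 8.72% for 20001 to 25000. It was 16.1%, 23.4% and 27.1% in the 3 following classes, ending at rank 38000. The median rank was 31170.5 and the best 7078. The median −log10 p was 4.33, against 5.30 for the 33910 incisor regions shared with at least 1 other library. Members just inside the limit had ranks 37983, 37988 and 37997 with signals of 443, 439 and 436. Peaks just outside had ranks 38002, 38004 and 38006 with signals of 434, 434 and 432, all 6 at a −log10 p of 4.01.

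**Figure D1:**
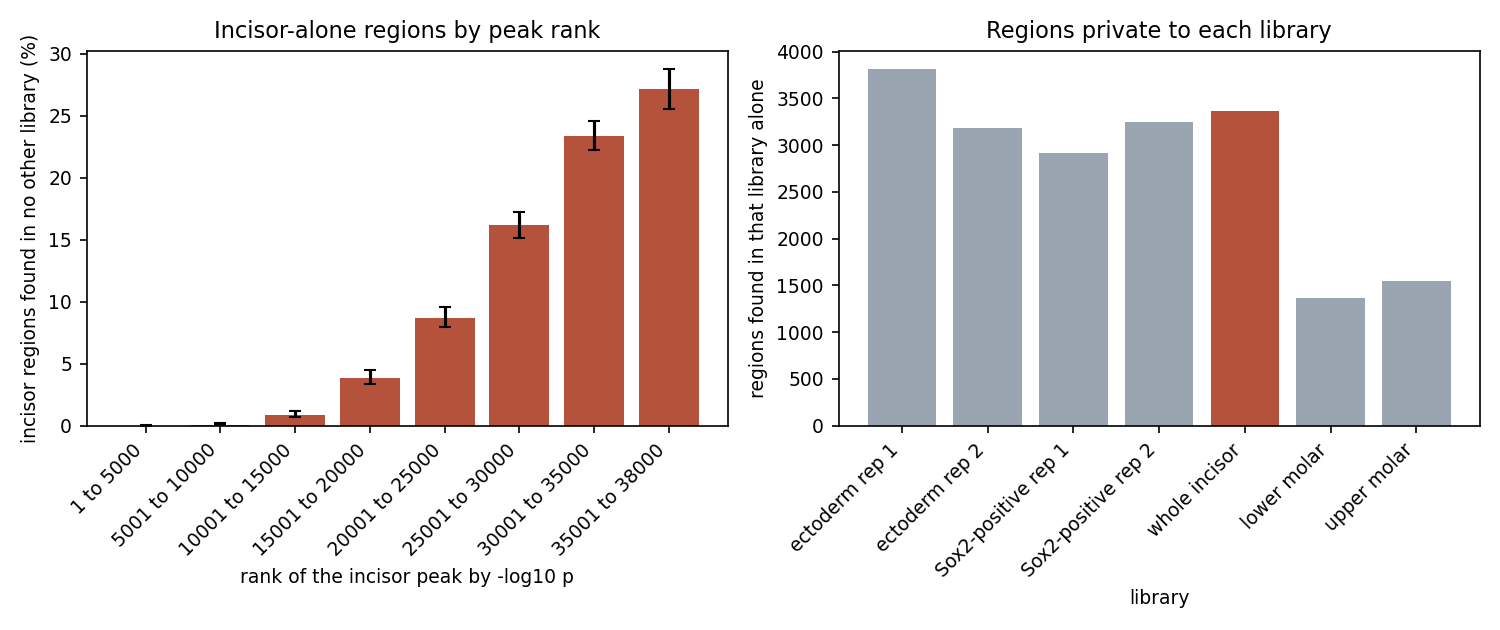
Left, the percentage of incisor regions that held no peak of another library, by rank of the incisor peak (bars, with 95% Wilson intervals), rising from 0 in the best 5000 to 27.1% in ranks 35001 to 38000. Right, the number of regions found in 1 library alone for each of the 7 libraries, where the whole incisor (red) has 3364 and the molars have 1369 and 1542.

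As a setting for that count, the lower molar had 1369 regions of its own and the upper molar 1542, in a series that holds 2 molar libraries and 1 of the whole incisor. Regions found in 1 library alone numbered 3818 and 3186 in the ectoderm replicates and 2911 and 3248 in the Sox2-positive replicates. The deposited autosomal lists ran from 38326 peaks (Sox2-positive replicate 2) to 80850 (ectoderm replicate 1), and the −log10 p at rank 38000 from 2.94 to 4.79. Sequencing depth is unknown, since peak lists hold no read counts.

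The 2 Sox2-positive libraries stood apart from each other in what they shared with the incisor. Regions held by the incisor and Sox2-positive replicate 2 alone numbered 2869, or 7.7% of incisor regions, against 611 (1.64%) for replicate 1. The corresponding numbers were 534 for the lower molar, 214 for the upper molar and 63 and 33 for the ectoderm replicates. Leaving out replicate 2 raised the number of incisor-alone regions from 3364 to 6242, while leaving out any other single library gave 3404 to 3986. These replicates held 36304 (replicate 2) and 36088 regions in all. Counts for the gene lists differed in both directions, and the largest differences were higher counts in replicate 2. With replicate 2 named first, the endothelial list had 38 against 23, the osteoclast list 41 against 24, the immune list 19 against 11, and the odontoblast and bone list 65 against 44. Dental mesenchyme had 61 against 49, AP-1 and immediate early genes 61 against 46, RUNX, SP and KLF genes 60 against 46 and WNT genes 96 against 81. The general epithelial list had 39 against 38. Lower in replicate 2 were cartilage (29 against 37), FGF (80 against 84), proximal jaw (27 against 30) and Notch (62 against 64). So were skeletal muscle (14 against 15), melanocyte (10 against 11), neuronal (8 against 9), hedgehog (67 against 68) and incisor epithelial progenitor genes (34 against 35). The part of this difference in the results below was not tested, and counts for the main lists are also given without replicate 2.

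A majority of the incisor-alone regions had a weaker peak elsewhere, below rank 38000. In the complete deposited lists, 2119 of the 3364 (63%, 61.3 to 64.6) met a peak of at least 1 other library, and 1245 met none. These 1245 were 3.34% of all incisor regions. The lower molar list held a peak at 1786 members (53.1%, 51.4 to 54.8) and the upper molar list at 1147 (34.1%, 32.5 to 35.7), with 925 in both. Their median ranks there were 54016 and 54837. Either molar list covered 2008 members, or 59.7%.

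The ectoderm replicates held a peak at 313 (9.30%) and 83 (2.47%) members, and the Sox2-positive replicates at 119 (3.54%) and 11 (0.327%). The Sox2-positive lists ended at 41829 and 38326 peaks, so they could hold few peaks below rank 38000. The ectoderm replicate 1 list was longer than either molar list and held a peak at fewer members. The part of list length in these shares was not tested. Among the 238 best-ranked members, 189 (79.4%, 73.8 to 84.1) had a peak in a molar list, 17 in an ectoderm list, 14 in a Sox2-positive list, and 47 had none. In the reverse direction, 1301 of the 3729 regions found in both molars alone (34.9%, 33.4 to 36.4) met a peak in the complete incisor list.

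**Figure D2:**
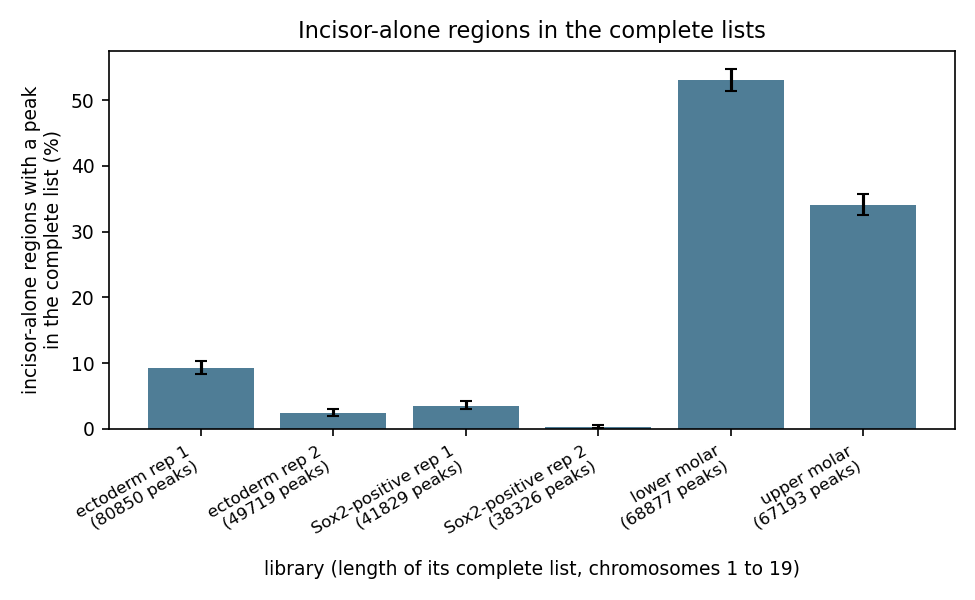
Percentage of the 3364 incisor-alone regions that met a peak in the complete autosomal list of each other library (bars, with 95% Wilson intervals); list lengths stand under the names. The lower molar (53.1%) and upper molar (34.1%) bars are the tallest, and the Sox2-positive lists have little room below rank 38000.

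Incisor-alone regions lay away from gene ends. A gene end is either boundary of a protein-coding gene, and 105 members had their summit within 1 kb of one (3.12%, 2.59 to 3.76). Shared incisor regions of similar rank, 20001 to 38000, had 12.9% (12.4 to 13.5) there, against 3.10% (2.55 to 3.77) of the members in the same rank range. The regions of both molars alone had 2.33% (1.90 to 2.87), and the 1363 regions of the 3 whole teeth alone 2.71%. All 3 of these restricted sets had a low share near gene ends. RefSeq start sites gave the same order, with 1.51% of members, 10.01% of shared regions of ranks 20001 to 38000 and 0.757% of the regions of both molars alone within 1 kb.

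The median member lay 27.0 kb from the nearest gene end, against 18 kb for shared regions of ranks 20001 to 38000 and 34.7 kb for those of both molars alone. Inside a gene lay 56.4% (54.7 to 58.1) of members and 56.6% (55.8 to 57.4) of the shared regions of that rank, and these intervals overlap. Exons and introns were not told apart, since the gene table gives gene bounds only. Further than 50 kb from any gene lay 18.1% of members and 22.4% of the regions of both molars alone. Members had a median width of 446 bp and a range of 189 to 3084 bp, and those of ranks 20001 to 38000 a median of 439 bp. Shared regions of ranks 20001 to 38000 had 699 bp and regions of both molars alone 504 bp. Width was measured on the joined region, which is the incisor peak alone for a member but joins peaks of several libraries elsewhere. Shared regions are thus wider by construction, and these widths show no trait of the members.

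**Figure D3:**
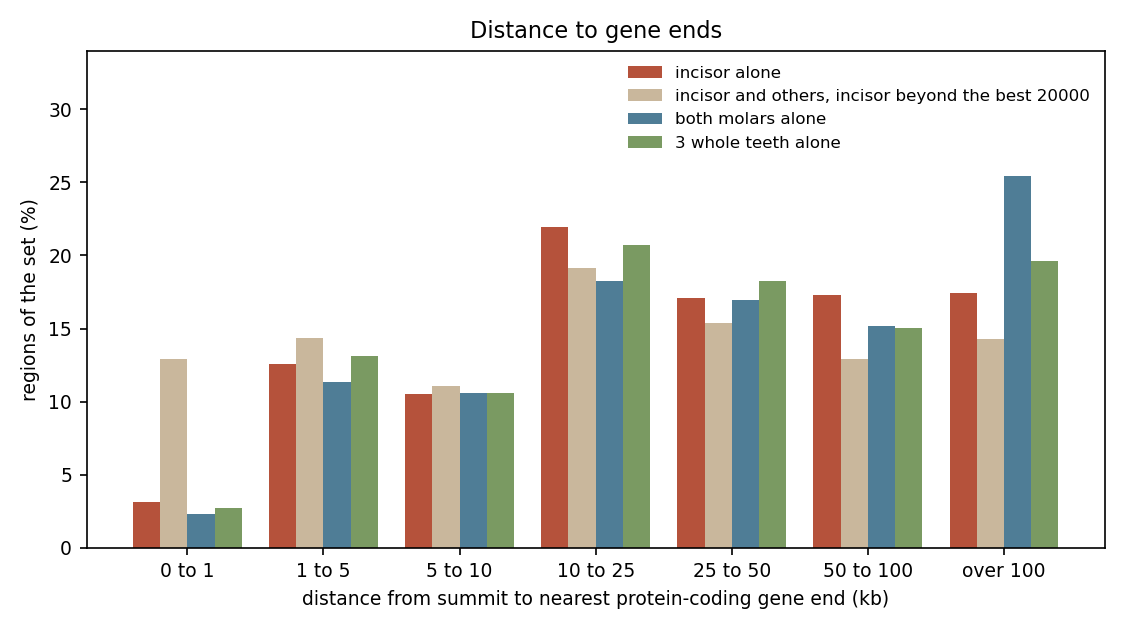
Percentage of each set of regions by distance from the peak summit to the nearest protein-coding gene end (kb), for incisor-alone regions (3364), incisor regions shared with others at ranks 20001 to 38000 (14349), regions of both molars alone (3729) and of the 3 whole teeth alone (1363). Within 1 kb the shared regions reach 12.9% and the other sets stay between 2.33% and 3.12%.

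A top-38000 peak of another library lay within 500 bp of 292 members (8.68%) and within 5 kb of 1593 (47.4%), and the median distance was 5.53 kb. The same distances were not computed for other regions. By chromosome, the share of incisor regions that were incisor-alone ran from 5.95% (4.92 to 7.18) on chromosome 17 to 11.5% (9.88 to 13.4) on chromosome 16.

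The best-ranked member lay inside Rarb, a retinoic acid receptor gene, at chr14:16602953-16604061, with a −log10 p of 6.74 and a signal of 1496 at rank 7078. No other complete list held a peak there except that of the upper molar, at rank 65264 with a signal of 211. Beside the region, however, a top-38000 peak of another library lay 0.449 kb away. Inside the scaffold gene Tanc1, chr2:59622469-59622987 had a signal of 1280 at rank 9747 and was met by a peak in ectoderm replicate 1 (signal 484), lower molar (311) and upper molar (235). Signals of different libraries are not on a common scale, so they place these peaks within their own lists only. At these members of Rarb and Tanc1, no peak of another library ranked better than 49754 in its own list.

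Of the 12 best-ranked members, 2 met no peak in any other complete list. They lay inside Adamts16, a gene for a secreted metalloprotease, at chr13:70823791-70825014 (signal 1351, rank 9985) and inside Mtus2, which encodes a microtubule-associated protein, at chr5:148271877-148272471 (signal 1166, rank 11656). The strongest signal of the 12, 2477, belonged to chr9:60106007-60107248 inside Thsd4, a gene of the ADAMTS-like matrix proteins. Both molar lists held a peak there, with signals of 485 and 584. Others of the 12 lay in or nearest to Cntn6, Fam43a, Med15, Prss35, Cdc25a and Rapgef2. These 6 had a weaker peak in at least the lower molar list.

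The widest member, 3084 bp, covered chr2:164893615-164896698 in Zfp335, and 4 other complete lists held peaks within it. Next was a region of 1553 bp 70.9 kb from Cebpb, a basic leucine zipper transcription factor gene, at chr2:167760732-167762284. It met no peak in any other complete list. The region in Gsr, the glutathione reductase gene, at chr8:33674134-33675521 (1388 bp), also met none. Those at Atp5l (1461 bp), Pxn (1414 bp) and Tanc1 (1341 bp) each met a lower molar peak.

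Each region was assigned to a protein-coding gene that contained its summit or, failing that, had the nearest end within 50 kb. Of the members, 2755 (81.9%) were so assigned, to 2124 genes. A single member fell to 1668 of the genes, 2 to 333, 3 to 85, and 4 or more to 38. Among the 32978 incisor regions assigned to a gene, the members made up 8.35%, the value that the counts for gene lists are read against.

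The 10 genes with most members were long, from 167 to 1106 kb. Tanc1 had 7 of its 22 incisor regions as members, and Thsd4 had 6 of 18. Auts2, a transcriptional regulator gene of neural development, had 6 of 26. Dlc1 and Stard13, which encode GTPase-activating proteins of 1 family, had 6 of 19 and 5 of 19, and Arhgap10, of the same activity, had 5 of 15. Dock9, an activator of the GTPase Cdc42, had 5 of 11. Tbc1d4, which controls glucose transporter traffic, had 5 of 8. Maml3, a Notch coactivator gene, had 5 of 23. The complete molar lists met 6 of the 7 Tanc1 members, but 1 of the 5 at Tbc1d4 and 1 of the 5 at Stard13.

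Lists of genes for the cell types and pathways of the tooth were then counted. Each count is the number of members among all incisor regions assigned to the list's genes, beside the 8.35% over all genes. For the molar counterpart, regions of both molars alone were counted among the regions present in both molars, where 11.3% of all such regions and 9.91% of those assigned to a gene were of both molars alone. The value expected from rank is the sum, over a list's regions, of the member share of all assigned or unassigned incisor regions in the same class of 1000 ranks. Of 25 lists, 20 had at least 1 member and all lists stayed small, so that most intervals span the background.

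Genes of the vessel wall's inner lining had the largest share of members among the 25 lists. In the endothelial list 8 of 30 incisor regions were members (26.7%, 14.2 to 44.4), where the ranks alone gave 4.09, or 13.6%. Both molars alone had 2 of 18. The members lay at Erg, a transcription factor of endothelial cells (2 of its 5 incisor regions), Tie1, a receptor of vessel growth (2 of 3), Vwf, the von Willebrand factor (2 of 5), Flt1, a receptor for VEGF (1 of 4), and Emcn, an endothelial sialomucin (1 of 1). The best-ranked, chr16:95460304-95460683 inside Erg, had a signal of 798 at rank 19036 and a lower molar peak at rank 45223. Both Tie1 regions, chr4:118505549-118506058 (signal 659, rank 22457) and chr4:118465679-118466109 (signal 400, rank 35953), met no peak in any other complete list.

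Outside the members, the incisor list held a peak at an end of 1 of the 16 endothelial genes, Tie1. The Sox2-positive replicates held one at 2 and 5, the ectoderm replicates at 3 and 4, and the lower and upper molars at 1 and 0. Regions at endothelial genes numbered 30 in the incisor, 23 and 38 in the Sox2-positive replicates, 25 and 32 in the ectoderm, and 22 and 21 in the molars. The incisor thus did not hold the most. Without Sox2-positive replicate 2, 18 of the 30 endothelial regions were incisor-alone (60%, 42.3 to 75.4) against 15.5% over all genes. Of the 8 members, 4 met no peak in any complete list (13.3% of the 30 regions, against 3.09% over all genes). With the best 20000 peaks of every library in place of 38000, the list came to 1 of 7, so its share rests on peaks beyond rank 20000.

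Genes of odontoblasts and bone-forming cells had 11 members of 76 incisor regions (14.5%, 8.28 to 24.1), where the ranks gave 8.68, and both molars alone had 2 of 43. Mepe, a matrix phosphoglycoprotein gene, had 3 of its 5 incisor regions as members, and the neighbouring Spp1, the osteopontin gene, 2 of 6. Dlx3, a homeobox gene of the tooth and skeleton, had 2 of 7. Dspp, which encodes the main non-collagen protein of dentin, had 1 of 2. Col1a1 (collagen of dentin and bone), Alpl (alkaline phosphatase) and Runx2 (a regulator of bone formation) had 1 each, of 10, 10 and 9. The best-ranked was chr11:95128349-95128860, 3.26 kb from Dlx3, with a signal of 526 at rank 23905. No member of the list reached the best 20000.

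Molar peaks lay below rank 38000 at 7 of these 11 members, beside 59.7% of all members. At Mepe, chr5:104333385-104333574 had rank 35493 in the incisor and met peaks of rank 38774 in the lower molar and 42865 in the upper molar, so it lay just on opposite sides of the limit. Another Mepe region, chr5:104355924-104356267 (signal 437, rank 34583), and the Dspp region, chr5:104143545-104143826 (signal 444, rank 32771), met no peak elsewhere. In all, 4 of the 11 met none, beside 1245 of all 3364 members. Without Sox2-positive replicate 2 the list had 22 of 77 (28.6%, 19.7 to 39.5). The whole incisor had 76 regions at these genes in all, the lower molar 56 and the upper molar 47, and each had a peak at an end of 9 or 10 of the 15 genes.

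Genes that pattern the distal jaw, where the incisor forms, had 7 members of 51 incisor regions (13.7%, 6.81 to 25.7), where the ranks gave 3.05, and 2 of 25 in both molars alone. They included 2 each at Hand2 and Alx4 and 1 at Foxf2. No complete list of another library held a peak at 6 of the 7, or 11.8% of the 51 regions (5.51 to 23.4), against 3.09% over all genes.

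Hand2 encodes a helix-loop-helix factor of the mandibular arch. Its stronger member, chr8:57331730-57332547, had a signal of 1477 at rank 17247, with its summit 7.61 kb past the gene's upper end. The weaker, chr8:57345503-57345937, had a signal of 482 at rank 30086. Between and around them, the incisor and both Sox2-positive libraries shared peaks 12.5 to 13.6 kb, 14.5 to 16.0 kb and 19.8 to 20.3 kb from the gene's lower end (spans of the incisor peaks), where neither molar list held any peak. Ectoderm replicate 1 also had weaker peaks, beyond its best 38000, at the first of these sites. Hand2 had 8 incisor regions in all. At Alx4, an aristaless-type homeobox gene, the members were chr2:93619461-93619855 (signal 664, rank 21612), with its summit 22.8 kb before the gene, and chr2:93641847-93642288 (signal 355, rank 33505), whose summit lay 0.235 kb from its end. The latter region lay only 0.204 kb from a top-38000 peak of another library, at the gene end.

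Without Sox2-positive replicate 2, the distal jaw list had 10 of 51 (19.6%) against 15.5% over all genes, a share that no longer stood as far from the background. With the best 20000 peaks of every library it had 6 of 34 (17.6%, 8.35 to 33.5) against 8.38%. Other lists stood on both sides of it under that setting, so the share was not particular to distal jaw genes. RUNX, SP and KLF genes had 20%, odontoblast and bone genes 19.4% and dental mesenchyme 18.2%, while WNT genes had 10% and epithelial genes 9.52%. The whole incisor had 51 regions at these genes, Sox2-positive replicates 39 and 44, the ectoderm 32 and 34, and the molars 28 and 29. Proximal jaw genes had 1 member of 25 (4%, 0.710 to 19.5), inside Lhx6, a LIM homeobox gene, and 2 of 15 (13.3%) with the best 20000 peaks of every library. Its interval overlaps that of the distal list, and the difference was not tested.

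**Figure D4:**
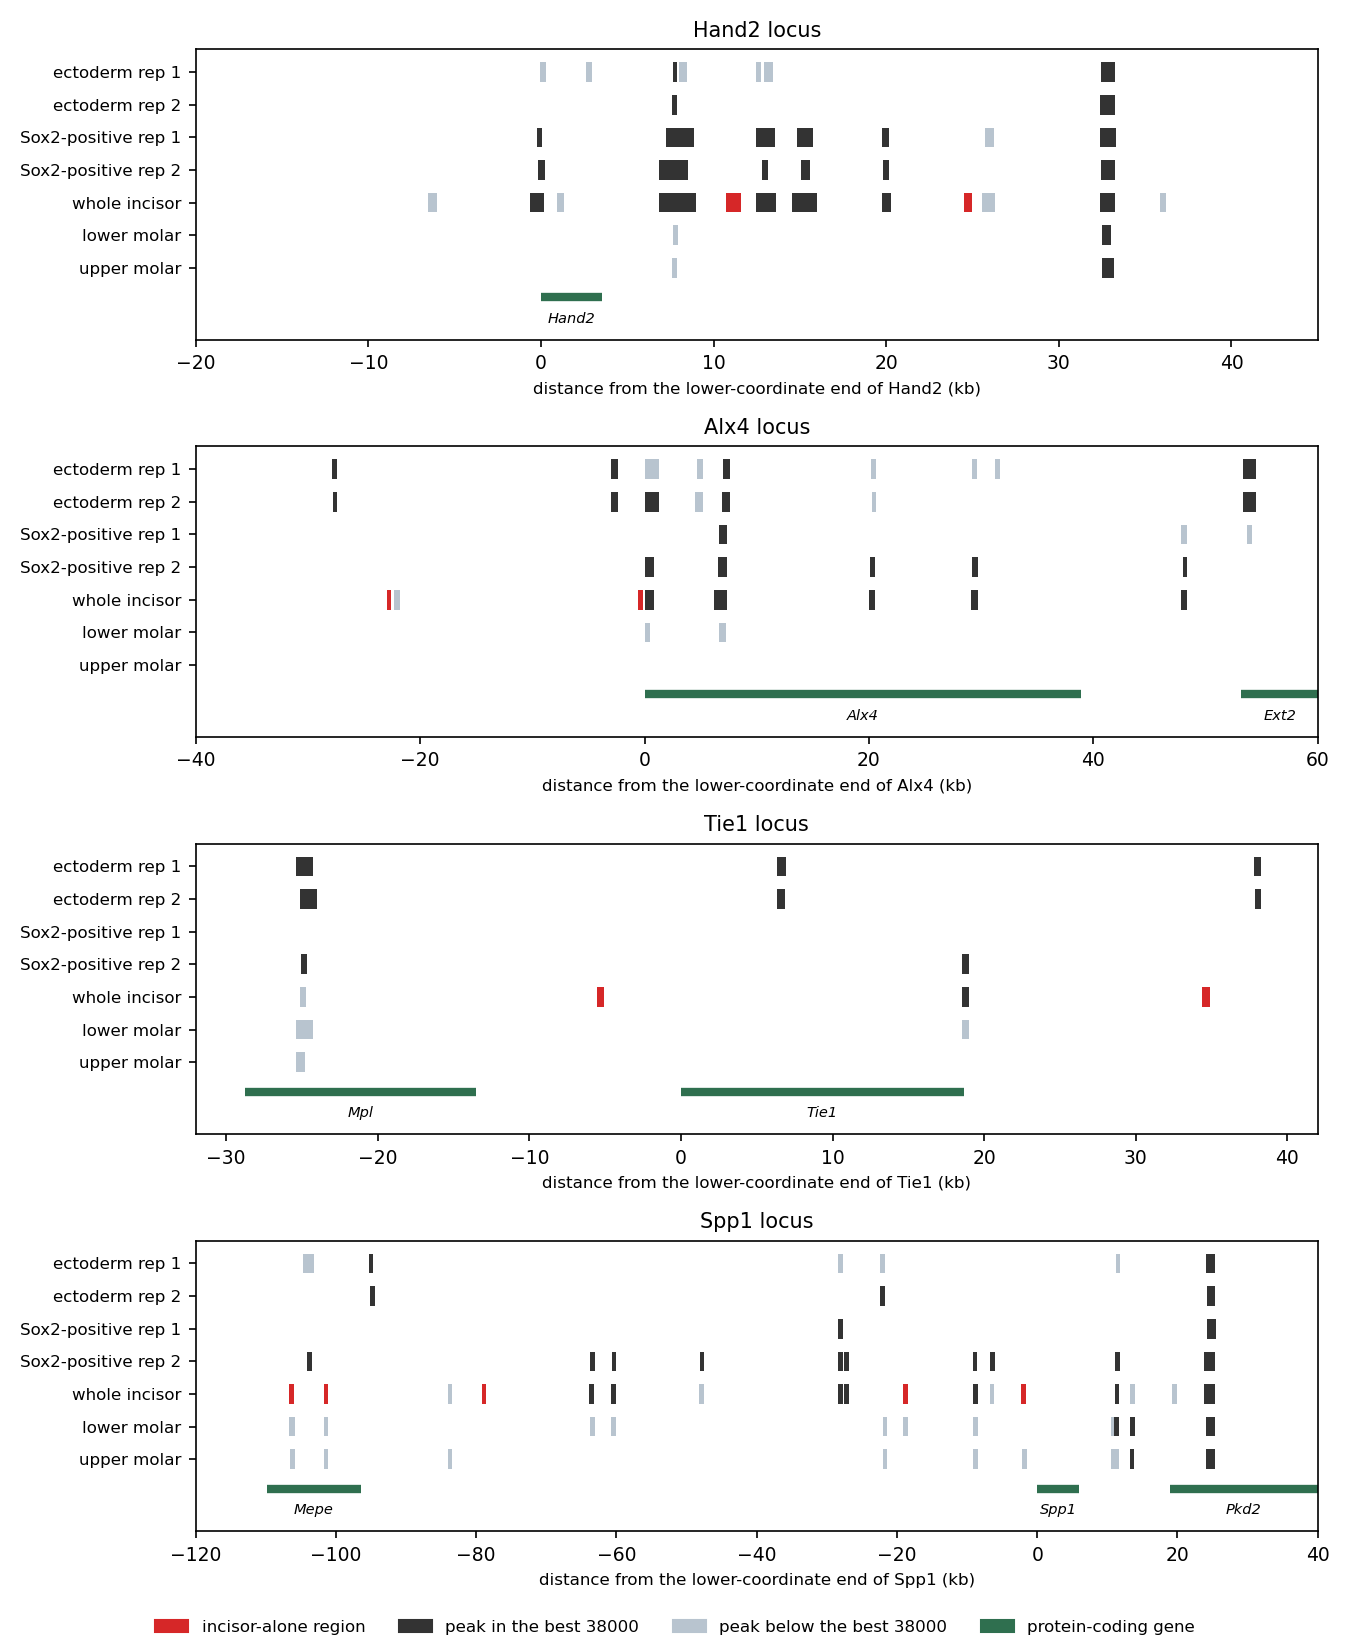
Peaks of all 7 libraries around Hand2, Alx4, Tie1 and Spp1, by distance from the lower-coordinate end of each gene (kb); incisor-alone regions are red, peaks within the best 38000 black, weaker deposited peaks pale, and protein-coding genes green. The members at Hand2, Alx4 and Tie1 have no peak above or below them in any other library, while 4 of the 5 at Mepe and Spp1 have a pale molar peak.

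The lists of other tooth cells had shares near the background. Dental mesenchyme had 5 of 51 (9.80%, 4.26 to 21.0), with 2 at Twist2, a mesenchymal transcription factor, and 1 each at Spon1, Pdgfra and Fgf10, the last a growth factor for the cervical loop. Enamel genes had 4 of 39 (10.3%, 4.06 to 23.6), against 7 of 34 in both molars alone. They lay at Mmp20, the enamel protease (2 of its 3 regions), Ambn, the ameloblastin gene (1 of 3), and Wdr72 (1 of 2). The Ambn region, chr5:88474411-88474875, had a signal of 631 at rank 22467 and a lower molar peak at rank 58577.

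Epithelial genes had 4 of 39, with 2 at Cdh1, the E-cadherin gene, and 1 each at Epcam and Grhl2. Epithelial progenitor genes of the incisor had 2 of 25, at Lrig1 and Cdh6. The osteoclast list had 4 of 33 (12.1%, 4.82 to 27.3), at Nfatc1, Ctsk and Itgb3, the mural list 2 of 22, the melanocyte list 2 of 14, both at Mitf, and the immune list 1 of 19, at Itgam. Without Sox2-positive replicate 2, dental mesenchyme came to 16 of 51 (31.4%), enamel to 10 of 39 (25.6%), osteoclast to 11 of 33 (33.3%) and immune to 6 of 19 (31.6%), against 15.5%. Lists under 15.5% included epithelium with 4 of 39 (10.3%), BMP and TGF-beta with 14 of 153 (9.15%), FGF with 6 of 73 (8.22%), Notch with 5 of 59 (8.47%) and proximal jaw with 1 of 25, while WNT had 16 of 102 (15.7%) and hedgehog 11 of 71.

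Cartilage genes had 1 of 26, at Col2a1, where both molars alone had 6 of 28. No member was assigned to the cornified epithelial (0 of 5), erythroid (0 of 7), glial (0 of 23), neuronal (0 of 8) or skeletal muscle (0 of 8) lists, whose upper limits ran from 14.3% to 43.4% and so include 8.35%. As a check on tissue identity, the incisor list held a peak at an end of 7 of 13 epithelial genes, where the other libraries held 10 or 11. It held one at 3 of 15 enamel genes, against 4 to 6 in the others, the ectoderm included, and at 10 of 15 odontoblast and bone genes, against 5 to 11. Gene-end peaks of the epithelial and enamel lists were thus fewest in the incisor, but this was not particular to them. The incisor was also lowest for the neuronal (2 of 11, against 3 to 6) and cartilage lists (4 of 12, against 5 to 7). The same held for the incisor epithelial progenitor (7 of 12, against 8 to 10) and hedgehog lists (9 of 12, against 10 to 11). The incisor list held one at 4 of 16 skeletal muscle genes (3 to 7 in the others), 2 of 14 immune genes (2 to 3) and 1 of 10 erythroid genes (0 to 2). These 3 counts lay within the range of the other libraries. The part of other cell types in the members was not tested.

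Among signalling pathways, BMP and TGF-beta genes had 5 of 153 incisor regions (3.27%, 1.40 to 7.42), under the 8.35% over all genes. The ranks gave 11 regions, or 7.20%, which lies inside that interval. The members lay at Tgfb2, a ligand, Tgfbr2, a receptor, Smad3 and Smad6, which transmit and inhibit the signal, and Nog, a secreted BMP antagonist. All 5 met a peak in a complete molar list. With the best 20000 peaks of every library the same list had 14 of 94 (14.9%, 9.08 to 23.5) against 8.38%, so its place under the background turned with the list length. The same held for FGF (7 of 41, 17.1%), Notch (4 of 32, 12.5%) and WNT genes (4 of 40, 10%), whose shares below were under 8.35%. Hedgehog genes had 5 of 32 (15.6%) under that setting.

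WNT genes had 5 of 102 (4.90%, 2.11 to 11), with 2 at Tcf7, a transcription factor of the pathway, and 1 each at Lrp4, a receptor, and Sfrp2 and Wif1, both secreted inhibitors. FGF genes had 3 of 73, at Fgfr2, Spry1 and Spred1, a receptor and a pair of feedback inhibitors. Notch genes had 2 of 59, at Dll4 and Rbpj. Hedgehog genes had 7 of 71 (9.86%, 4.86 to 19), with 2 at Gli3 and 2 at Boc and 1 each at Gli2, Ptch1 and Smo. Among transcription factor lists, AP-1 and immediate early genes had 3 of 53, with 2 at Batf and 1 at Fos, none of which met a molar peak, and RUNX, SP and KLF genes had 6 of 60, all 6 with one.

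**Figure D5:**
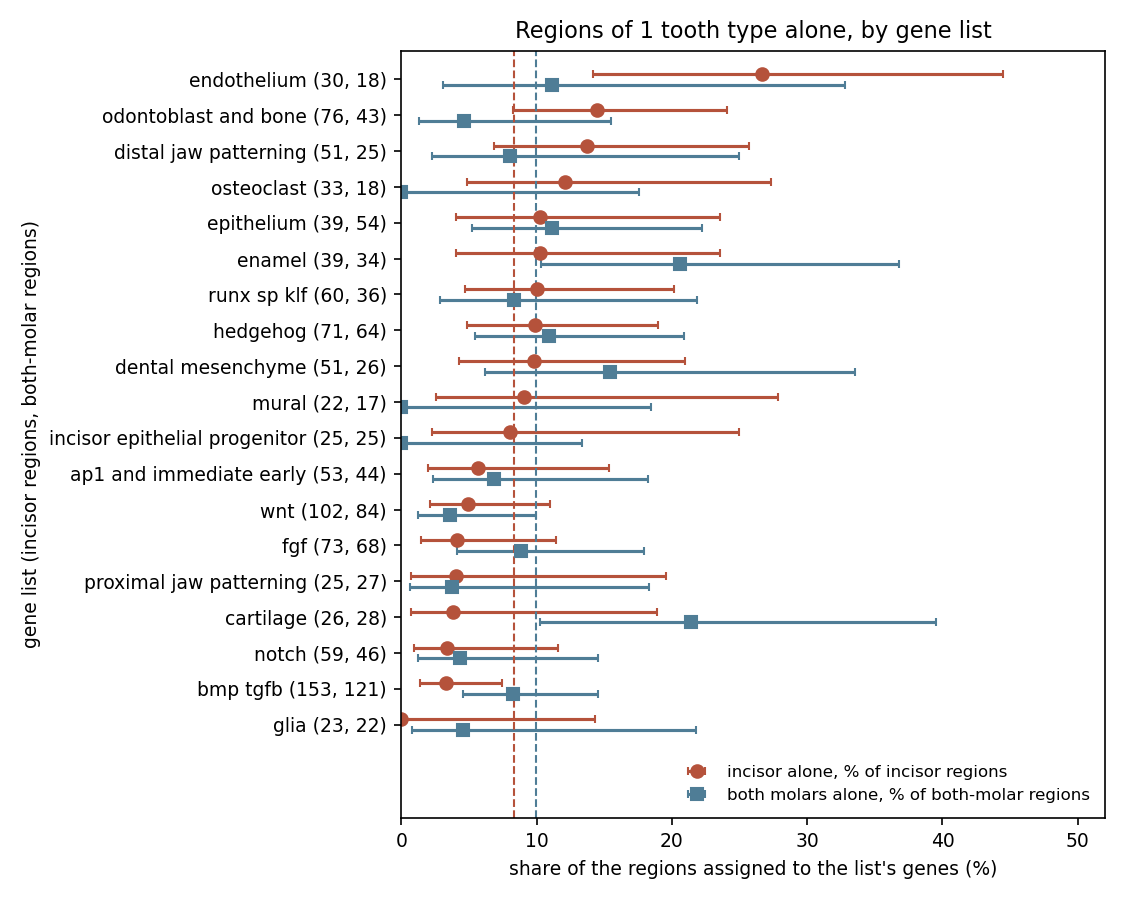
Share of regions that were incisor-alone (red circles, of incisor regions) or of both molars alone (blue squares, of both-molar regions) for the gene lists with at least 20 incisor regions, with 95% Wilson intervals; region numbers stand after each name and dashed lines mark 8.35% and 9.91% over all genes. The endothelial interval (14.2 to 44.4) lies above its line and the BMP and TGF-beta interval (1.40 to 7.42) below it. The other incisor intervals cross it. The ranks gave 13.6% for the endothelial list, just under its interval, and 7.20% for BMP and TGF-beta, inside its interval. No list was tested, and the intervals make no allowance for the number of lists.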

How the data were processed

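ATAC-seq peak lists of 7 mouse libraries in 5 groups were used, 1 deposited list per library. The submitters' processing notes name Trimmomatic, FastQC, Bowtie2, deepTools and Genrich and the build mm10. Versions, options, read filters and the shift for the transposase are not given in the sources used here. Per the labels' protocols, libraries were made with Omni-ATAC. The deposited signal of each peak and its deposited −log10 p come from the authors' peak calls on each library, are not scaled between libraries, and served only to rank peaks. No read counts come with them, so depth is unknown and limits what a missing peak can show.

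The best 38000 peaks per library on chromosomes 1 to 19 were merged at an overlap of 1 bp. Summits were assigned to 20665 protein-coding genes of RefSeq GRCm38.p6, by gene bounds and then by the nearest gene end within 50 kb. No genome sequence was used, so motifs were searched in RefSeq start windows only, with no windows on chromosome 18. Wilson intervals came from scipy 1.17.1 in python 3.11.15, with pandas 2.3.3, numpy 2.4.6 and matplotlib 3.10.9. The merging was tested on simulated peaks.

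Named in the text were the 12 members of best rank, up to 4 members per gene list, the 10 genes with most members and the 6 widest members, except some that are not reported here. Members beyond that and the start windows were chosen after their values were seen. The members and the 25 lists (351 genes, of which 7 on chromosome X or unmatched had no region) were chosen with earlier results of these data known. Alternatives were other list lengths, ranking by signal, other overlap rules, other distances, and leaving out each library. Shares at start sites and list shares without Sox2-positive replicate 2 were added after seeing the data.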

Additional observations from a re-analysis of the deposited data

Results flagged for a closer look

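Chromosome X lay outside the regions described above. Peaks at least as significant as the last autosomal peak used in each library were taken there. Of the 583 chromosome X regions with an incisor peak, 30 held no peak of another library (5.15%, 3.63 to 7.25). The comparisons above did not use these regions. Every chromosome from 1 to 19 had a higher share, the lowest being 5.95% on chromosome 17, within the chromosome X interval. With no input or control library in the series, this count was not compared with a background.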

How the results depend on the processing

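No paired analysis was possible because the results come from no test and the whole-tooth libraries carry no replicate numbers. The number of incisor-alone regions, 3364, was 1815 with the best 20000 peaks of every library, 7454 with all deposited autosomal peaks, 238 with the incisor limited to its best 20000, and 1245 with the other lists complete. Leaving out 1 library at a time gave 3404 to 6242, the highest without Sox2-positive replicate 2. The 3.12% of members close to a gene end became 5.62% with the best 20000 of every library, 5.91% with 200 bp windows around summits and 2.17% with the other lists complete. It was 1.81% for a distance of 500 bp, 7.97% for 2500 bp and 1.51% for start sites, an alternative chosen after seeing the data. Leaving out a library gave 3.01% to 3.51%. The share of members met by a peak in the other complete lists, 63%, was 97.4% with the best 20000 and 83.3% with the best 30000 of every library, 68.4% with summit windows, 67.2% where sharing needed 50% of a region covered, and 80.3% for the best 20000 incisor peaks. Leaving out a library gave 47.4% to 68.0%, the lowest without the lower molar. Under the alternatives, 56 list counts moved by over 1.5 times and 69 did not. Ranking by signal moved none of these main values by over 1.5 times. A missing peak may reflect depth, which is unknown.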

Other observations

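Some members stood in groups. Joining members less than 50 kb apart gave 84 groups of at least 3, which held 277 members (8.23%), and 18 groups had 4 or more. The longest run was at Tanc1, with 7 members among 16 incisor regions at chr2:59622469-59789489. At Tbc1d4, chr14:101530818-101594439, all 5 incisor regions of the stretch were members, and 3 of them met no peak in any other complete list. The same held for 4 of 4 at Fzd1, a WNT receptor gene, chr5:4489189-4528647, of which 3 met no other peak. At Nfkb1, a gene of the NF-kB factor, 4 of 5 incisor regions at chr3:135628835-135671303 were members, and at Irx5, an Iroquois homeobox gene, 4 of 10 at chr8:92363148-92411033. In both, 3 of the 4 met no other peak. At Synm, which encodes the intermediate filament protein synemin, all 3 incisor regions within chr7:67730405-67739025 were members. These groups were picked after their values were seen and were not tested. Grouping was not counted for other sets of regions, so the 8.23% has no background. Each stretch ran from its first to its last member, which raises the share of members within it. A hairpin of the microRNA table, Mir3088, lay under a member at chr2:28732989-28733347 inside Ak8, at incisor rank 37191, with no peak in any other complete list.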
